A study of Homo sapiens with 8 samples.

Results

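The genes described here were 33 genes of cholesterol and fatty acid synthesis, taken by gene symbol from a table of translation efficiency (TE) that holds 11244 genes. They comprised 18 genes of the sterol branch, 9 genes of the fatty acid branch and 6 genes of regulation and sterol transport. All 33 were found in the table and passed the filters on low values. Ribosome-protected fragments (RPF), which are the stretches of mRNA shielded by a ribosome from nuclease, and RNA of the same lysate (input) were sequenced from cells labelled HepG2, a human liver cancer line, in 8 libraries. The groups were METTL5-WT input, METTL5-WT RPF, METTL5-KO input and METTL5-KO RPF, with 2 libraries each. METTL5 is the methyltransferase that places N6-methyladenosine on 18S rRNA. The METTL5-KO cells were grown from single cells after Cas9 excision of part of METTL5, for which the labels name exons 2 to 3, and the sources used here do not say which clone gave which library. All cells, METTL5-WT included, received cycloheximide at 100 µg/mL for 7 min to hold ribosomes in place. Nothing states that the 2 libraries of a group came from separate cultures, so that p-values measure the spread between these libraries only. Genotype and clone cannot be told apart.

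Cholesterol is built from acetyl-CoA through mevalonate, isoprenoid units, squalene and lanosterol, while fatty acids are built from the same precursor through malonyl-CoA and are then elongated and desaturated. Both routes are switched on by the SREBP transcription factors, which SCAP escorts from the endoplasmic reticulum when sterols are scarce and which INSIG proteins hold back when sterols are plentiful. SREBF2 favours genes of the sterol route and SREBF1 those of the fatty acid route, and the liver is a main site of both.

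The input libraries held between 10.7 M and 15.3 M counts. The RPF libraries held 3.97 M and 4.59 M reads in METTL5-WT cells and between 8.63 M and 9.26 M in METTL5-KO cells, so that RPF values of METTL5-WT cells carry more counting error. METTL5 itself gave normalized input values of 334 and 385 in METTL5-WT cells and of 125 and 75.8 in METTL5-KO cells, and the difference of -1.86 in log2 was called by edgeR (adjusted p = 7.17e-08). Its RPF values were 375 and 453 against 49.4 and 23.4, in the direction of the labels. Of 7 hepatocyte markers, ALB, APOA2, APOH, FGB, TF and HNF4A had at most 3 counts in every input library, and AFP had 0 and 0 counts in METTL5-WT cells and 5 and 9 in METTL5-KO cells. The markers that define HepG2 as a liver line were thus at or near 0 in libraries that carry its name, and no other cell type name is given here. Leukocyte markers summed to at most 0.868 and endothelial markers to at most 1.25 counts per M counts (CPM) in any input library. COL1A1, COL1A2 and DCN, the fibroblast markers, summed to between 45.8 and 56.3 CPM in METTL5-WT cells and between 61.9 and 72.3 in METTL5-KO cells, with COL1A2 at most at 3 counts, and their part in the results below was not tested. In such bulk samples, fewer cells of a type and less RNA per cell cannot be told apart.

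In METTL5-WT cells the genes of the pathway covered a wide range of levels. SCD, the desaturase that makes oleate from stearate, was the most abundant of the 33 per length, at 186 ± 6.74 input reads per kb of exon and M reads and 1165 ± 27.2 RPF reads per kb of coding sequence and M reads (SD, n = 2), with M standing for 1e+06. In RPF level per length it was followed by ELOVL5 at 317 ± 11.0, FDPS at 282 ± 20.9, PMVK at 269 ± 10.0 and FASN at 254 ± 8.95. The ranges of 1 SD around FDPS, PMVK and FASN overlapped, so that the order of these 3 is not set by 2 libraries. TM7SF2 at 10.2 ± 3.68 and HSD17B7 at 8.70 ± 1.199 were lowest in RPF level per length and did not differ beyond their spread. HSD17B7 has a near-identical copy in the genome, so that its reads may be split with that copy. The ratio of RPF to input level, each per length, was highest for SC5D, with a log2 ratio of 3.58 in METTL5-WT cells, and CYP51A1, with 3.55 ± 0.18 (SD, n = 2). It was lowest for ACACA, at 0.46 ± 0.23, and INSIG1, at 0.48 ± 0.24, neither pair differing beyond its spread. The median log2 ratio of the 33 genes was 1.79, against 1.40 for all genes with an annotated coding sequence, and the median percentile of the 33 genes for this ratio was 62.8. Input was divided by the length of all exons and RPF by coding length, so that this ratio and its ranks also carry exon length over coding length. SC5D has 10054 bases of exon and 900 of coding sequence. Without lengths, the mean log2 TE in METTL5-WT cells was 0.48 for SC5D, 2.72 for CYP51A1, -0.02 for ACACA and -1.26 for INSIG1.

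Sterol regulatory elements are the sites through which SREBPs reach these genes, usually beside a CCAAT box bound by NF-Y, and promoters are printed to show where such letters lie: that of SREBF2, which was not called in any measure, and those of 5 genes that rose in RPF in METTL5-KO cells. RefSeq promoters of GRCh38.p14 were at hand for 29 of the 33 genes, and FASN, SQLE, FDFT1 and ACAT2 had none. In the 250 bases before the start, TCACNCCAC on either strand was found in SREBF2 alone, in 3.45% of the 29 promoters and 1.19% of those of 9050 genes of the TE table. CCAAT on either strand was found in 22 of the 29 promoters (75.9%) and in 41.9% of the 9050, and the motifs did not overlap in the promoters printed. A match is a description of letters and no proof of a bound site. Only this form of the element was searched for, so that elements with other letters or outside these 250 bases were not counted. The absence of a match thus does not show that a gene lacks an element. A gene was counted if any of its listed starts had a match. HMGCS1 and SC5D have 2 starts listed, and for each gene the promoter with the most matches was printed. In SREBF2 (chr22:41832855-41833104, plus strand), the element begins 133 bases before the start and the CCAAT box, read on the other strand as ATTGG, 106 bases before it. HMGCS1 (chr5:43313413-43313662, minus strand) held CCAAT boxes beginning 155 and 100 bases before the start, INSIG1 (chr7:155297628-155297877, plus strand) one at 170 bases, SC5D (chr11:121292521-121292770, plus strand) one at 56 bases STARD4 (chr5:111512536-111512785, minus strand) boxes at 161 and 130 bases and EBP (chrX:48521558-48521807, plus strand) boxes at 191, 70 and 30 bases. Each sequence is given 5′ to 3′ in the direction of the gene, with the matched letters in capitals.
SREBF2: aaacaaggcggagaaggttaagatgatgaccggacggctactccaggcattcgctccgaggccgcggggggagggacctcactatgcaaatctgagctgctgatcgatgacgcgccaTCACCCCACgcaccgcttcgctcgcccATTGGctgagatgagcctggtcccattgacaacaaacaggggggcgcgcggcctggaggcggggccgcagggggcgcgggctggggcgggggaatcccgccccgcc
HMGCS1: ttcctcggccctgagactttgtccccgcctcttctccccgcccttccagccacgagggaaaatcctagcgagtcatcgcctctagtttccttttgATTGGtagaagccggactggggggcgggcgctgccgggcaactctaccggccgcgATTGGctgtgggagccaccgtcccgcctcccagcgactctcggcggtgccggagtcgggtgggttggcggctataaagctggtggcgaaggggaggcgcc
INSIG1: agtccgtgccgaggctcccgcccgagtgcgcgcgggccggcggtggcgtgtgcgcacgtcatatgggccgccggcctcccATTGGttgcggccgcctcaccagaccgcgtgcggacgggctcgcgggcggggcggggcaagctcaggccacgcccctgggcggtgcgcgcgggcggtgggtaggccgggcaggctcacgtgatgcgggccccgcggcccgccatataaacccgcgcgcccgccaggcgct
SC5D: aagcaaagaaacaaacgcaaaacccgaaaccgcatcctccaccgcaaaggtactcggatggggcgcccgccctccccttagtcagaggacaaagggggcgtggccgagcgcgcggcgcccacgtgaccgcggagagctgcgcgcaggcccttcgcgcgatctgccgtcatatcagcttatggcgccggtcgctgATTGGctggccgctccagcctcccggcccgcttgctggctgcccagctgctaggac
STARD4: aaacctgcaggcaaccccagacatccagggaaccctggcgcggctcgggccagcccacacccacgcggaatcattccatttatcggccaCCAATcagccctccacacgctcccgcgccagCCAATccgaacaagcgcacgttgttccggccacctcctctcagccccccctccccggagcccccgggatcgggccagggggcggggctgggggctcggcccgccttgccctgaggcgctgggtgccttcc
EBP: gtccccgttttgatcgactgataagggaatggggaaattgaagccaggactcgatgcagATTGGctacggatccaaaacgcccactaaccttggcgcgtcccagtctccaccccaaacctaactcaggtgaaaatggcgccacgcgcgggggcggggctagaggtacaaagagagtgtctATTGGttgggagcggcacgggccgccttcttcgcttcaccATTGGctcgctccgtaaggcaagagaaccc

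In METTL5-KO cells, 6 of the 33 genes rose in input and none fell, by edgeR's quasi-likelihood test, where 22.4% of all genes tested were called, 11.8% higher and 10.6% lower. The 6 were SC5D, HMGCS1, LSS, PMVK, INSIG1 and SREBF1, and SC5D alone was called under all 10 alternative settings of input. The input count was lower without either METTL5-WT library. It was higher without either METTL5-KO library, where some members were called lower too. The share of all genes called in those fits is not given here, so that their counts cannot be set against 22.4%. In RPF, 15 genes were called by both limma and edgeR on recovered reads, where 26.6% of all genes were called, 14.1% higher and 12.5% lower. Of the 15, 13 rose and 2 fell, and 10 of them (HMGCS1, IDI1, FDPS, FDFT1, SC5D, EBP, SCD, SCAP, INSIG1 and STARD4) were called under all 16 alternative settings. TE, the RPF value relative to input of the same lysate, rose for HMGCS1, EBP and STARD4 and fell for SCAP, 4 genes of 33 where 4.72% of all genes were called, 2.65% higher and 2.06% lower. None of the 4 TE calls held under all 16 settings. The TE count was lower without any 1 of the METTL5-WT or METTL5-KO replicates, in fits whose share of all genes called is not given here. DESeq2 called 10 (7 higher and 3 lower), where it called 10.2% of all genes, 5.8% higher and 4.42% lower. The plot of fold changes sets the 3 measures side by side.

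**Figure D1:**
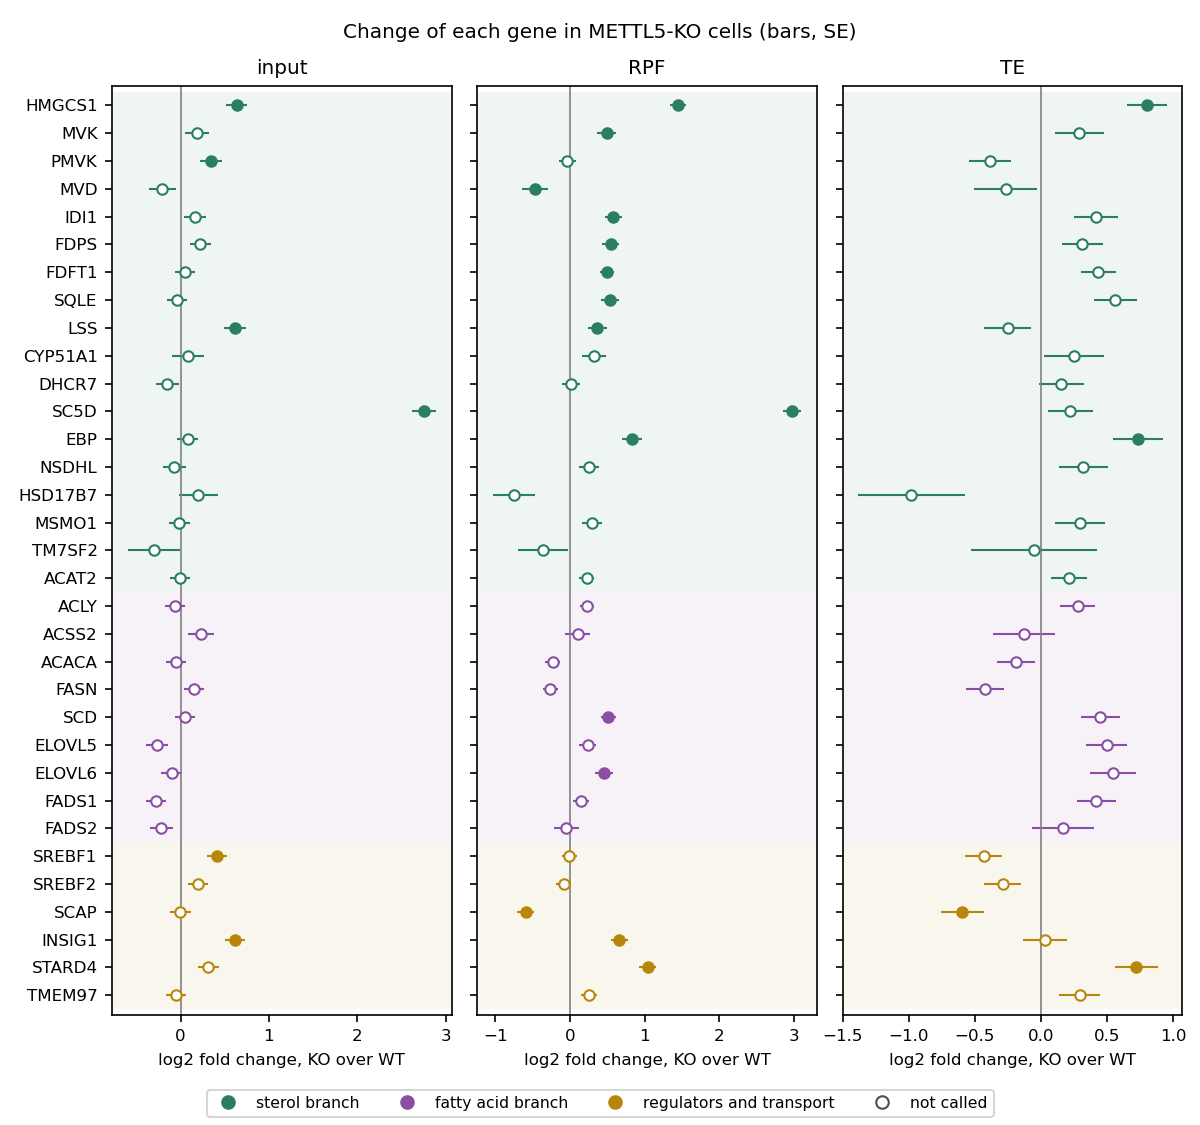
Log2 fold change (METTL5-KO over METTL5-WT, x axis) of each of the 33 genes (rows) in input, RPF and TE, with bars of 1 SE and colours for the 3 groups of genes. Filled points passed the test (input, edgeR; RPF and TE, limma and edgeR on recovered reads), and SC5D, at 2.76 in input and 2.98 in RPF, lies far to the right of the other genes.

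Medians over the groups of genes are given as a description, without a test. The median log2 fold change of the sterol branch was 0.08 in input, 0.34 in RPF and 0.27 in TE, with values from -0.30 to 2.76 in input. For the fatty acid branch the medians were -0.06 in input, 0.15 in RPF and 0.28 in TE. For the genes of regulation and transport they were 0.25, 0.12 and -0.13. The medians over all genes tested were -0.0043 in input, 0.022 in RPF and 0.021 in TE. Between METTL5-WT and METTL5-KO libraries, RPF values did not overlap for 21 genes that were higher and 5 that were lower in METTL5-KO cells, against 32.4% and 29% of all genes. For input the counts were 13 higher and 6 lower (31.9% and 31.4% of all genes), and for TE 17 higher and 7 lower (28.2% and 25.1%).

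**Figure D2:**
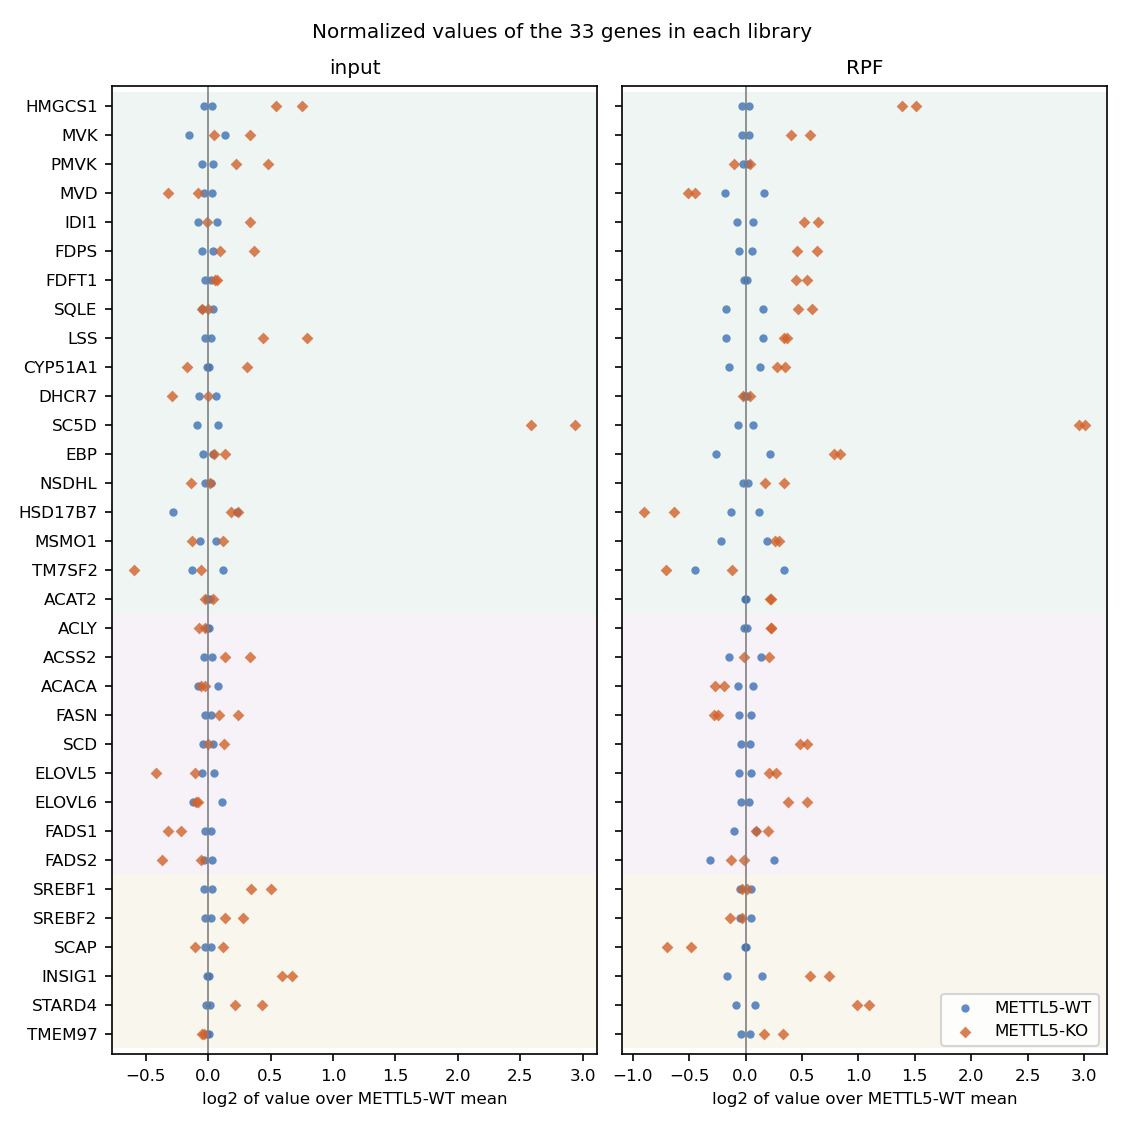
Normalized value of each of the 33 genes in each library as log2 of its ratio to the METTL5-WT mean (x axis), for input (left) and RPF (right), with circles for METTL5-WT and diamonds for METTL5-KO libraries. Both METTL5-KO libraries lie right of both METTL5-WT libraries for 13 genes in input and 21 in RPF.

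Of the regulators of the pathway, SREBF1 was called in input alone, SCAP in RPF and TE, and INSIG1 in input and RPF, while SREBF2 was not called. SREBF1 had normalized input values of 1235 and 1290.3 in METTL5-WT cells and of 1599 and 1793 in METTL5-KO cells, and RPF values of 2385 and 2232 against 2327 and 2258. Its input libraries did not overlap and its transcript rose (log2 fold change 0.41 ± 0.12, edgeR adjusted p = 0.0119), whereas its RPF values overlapped and were not called different (-0.0094 ± 0.10, limma adjusted p = 0.957). The TE of SREBF1 was 0.95 and 0.79 on the log2 scale in METTL5-WT cells and 0.54 and 0.33 in METTL5-KO cells, a difference of -0.43 ± 0.14 that missed the threshold (limma adjusted p = 0.084). The input call of SREBF1 was lost without METTL5-WT replicate 1 (edgeR adjusted p = 0.35) or replicate 2 (0.227), and in limma with the GC trend removed (0.23, adjusted p = 0.058). Its TE difference was called by DESeq2 (-0.44, adjusted p = 0.0494) and with quantile normalization (-0.57, limma adjusted p = 0.032), and it shrank to -0.083 with the GC trend removed. SREBF2 had input values of 1946 and 1884 against 2099.5 and 2321, and RPF values of 2599 and 2427 against 2279 and 2467. It was called in no measure by the reported tests, with log2 fold changes of 0.19 ± 0.11 in input and -0.083 ± 0.099 in RPF. Its input was higher in both METTL5-KO libraries, and the change was 0.28 without METTL5-KO replicate 1. The log2 TE of SREBF2 was 0.42 and 0.36 against 0.12 and 0.088, without overlap. This difference of -0.29 ± 0.14 was not called (limma adjusted p = 0.235) and was -0.099 with the GC trend removed.

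SCAP, the escort of the SREBPs, had input values of 754 and 729 in METTL5-WT cells and of 688 and 806 in METTL5-KO cells. Its RPF values were 1596 and 1606 against 1146 and 987, and its log2 TE was 1.08 and 1.14 against 0.73 and 0.29. Input thus overlapped between genotypes while RPF and TE did not. SCAP fell in RPF by 0.59 on the log2 scale (SE 0.12, limma adjusted p = 0.0011, edgeR adjusted p = 0.00029), called under all 16 settings, and in TE by 0.60 (SE 0.16, limma adjusted p = 0.0457). The TE call was lost without METTL5-WT replicate 1 (limma adjusted p = 0.144), METTL5-WT replicate 2 (0.174) or METTL5-KO replicate 2 (-0.38, 0.319), and with the trend on coding GC content removed (-0.32, 0.232). INSIG1, which holds SCAP in the endoplasmic reticulum, had input values of 1429.8 and 1443 against 2165 and 2291, and RPF values of 537 and 666 against 1006 and 894. Both sets were separate, and INSIG1 rose in input (0.62 ± 0.11, edgeR adjusted p = 0.000292) and in RPF (0.66 ± 0.12, limma adjusted p = 0.000466), with a TE difference of 0.032 ± 0.17. Its input call was lost without METTL5-WT replicate 1 (edgeR adjusted p = 0.0708) or replicate 2 (0.0552).

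HMGCS1, which makes the HMG-CoA that enters the mevalonate route, rose in all 3 measures. Its input values were 878 and 841 in METTL5-WT cells and 1447 and 1251 in METTL5-KO cells, and its RPF values, from 599, 740, 3151 and 3715 reads, were 1423 and 1484 against 3799.9 and 4142. Neither set overlapped, and HMGCS1 had the largest RPF change of the 33 genes after SC5D. The log2 fold change was 0.64 ± 0.12 in input (edgeR adjusted p = 0.000345) and 1.45 ± 0.10 in RPF (limma adjusted p = 2.82e-08), a 2.73-fold rise. Its log2 TE was 0.70 and 0.82 against 1.39 and 1.73, a rise of 0.80 ± 0.15 (limma adjusted p = 0.00849, edgeR adjusted p = 0.00295). The TE rise was smaller with the GC trend removed (0.55, adjusted p = 0.0273), and its call was lost without METTL5-WT replicate 1 (0.74, limma adjusted p = 0.0655) or METTL5-KO replicate 2 (0.64, 0.139). The input call was lost without METTL5-WT replicate 2 (0.61, edgeR adjusted p = 0.065).

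Of the later steps from mevalonate to squalene, MVK, IDI1, FDPS and FDFT1 rose in RPF and none of these 4 was called in input or TE. IDI1, which interconverts the isoprenoid units, had RPF values of 1604 and 1771 in METTL5-WT cells and of 2637 and 2417 in METTL5-KO cells (log2 fold change 0.58 ± 0.12, limma adjusted p = 0.0014). Its input values, 1919 and 1725 against 2297 and 1815, overlapped. FDPS, which makes farnesyl diphosphate, had RPF values of 3181 and 3449 against 5130.1 and 4553 (0.54 ± 0.11, limma adjusted p = 0.0014) and input values of 2235 and 2102 against 2315 and 2799. RPF of FDPS was separate by genotype by more than the spread of either group. FDFT1, the squalene synthase, rose by 0.50 ± 0.094 and MVK, the mevalonate kinase, by 0.49 ± 0.13 on the log2 scale in RPF, the latter lost without METTL5-KO replicate 2 (0.41, limma adjusted p = 0.0828) and without a variance trend (0.0748). PMVK, the next kinase, went another way. Its input values were 989 and 930.1 against 1122 and 1336, a rise of 0.35 ± 0.12 (edgeR adjusted p = 0.0419), while its RPF values of 1433 and 1474 against 1351 and 1492 overlapped (-0.034 ± 0.11). The PMVK call was lost without METTL5-WT replicate 1 (edgeR adjusted p = 0.33), METTL5-WT replicate 2 (0.465) or METTL5-KO replicate 2 (0.0785), with DESeq2 (0.0521) and in limma with the GC trend removed (0.24, 0.0799).

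MVD, the decarboxylase that follows PMVK, fell in RPF by 0.47 on the log2 scale (SE 0.17, limma adjusted p = 0.0461, edgeR adjusted p = 0.0328), from 199, 186, 246 and 278 reads. It was called under 7 of the 16 settings. It was lost without METTL5-WT replicate 1 (-0.30, limma adjusted p = 0.334), METTL5-KO replicate 1 (-0.44, 0.168) or METTL5-KO replicate 2 (-0.50, 0.123), with the replicate number as a block (0.0512) and with the GC trend removed (-0.32, 0.11). MVD also lay in a stretch of chromosome 16 where input was lower in METTL5-KO cells. The 40 genes nearest to it had a median input log2 fold change of -0.42, below the 5th percentile (-0.41) of such windows over all 14054 genes tested. Input of MVD itself differed by -0.21 ± 0.15 and was not called. ACSS2, on chromosome 20, lay in a lower window still (median -0.53), and its own input differed by 0.23 ± 0.15 and was not called.

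SQLE, the first oxygen-dependent and a rate-limiting step of the sterol route, had input values of 1208 and 1136 in METTL5-WT cells and 1171 and 1132 in METTL5-KO cells. Its RPF values were 1392 and 1107 against 1885 and 1726. Input overlapped and RPF did not, and SQLE rose in RPF by 0.54 ± 0.12 (limma adjusted p = 0.00224), lost without METTL5-WT replicate 2 (0.37, 0.0731). The log2 TE of SQLE was 0.20 and -0.04 against 0.69 and 0.61, and the difference of 0.56 ± 0.16 was called by edgeR (adjusted p = 0.0452, 6.76% of all genes called) and with the lysate as a replicate block (limma adjusted p = 0.026, 7.06% of all genes called) but not by limma without the block (0.0573). With the GC trend removed it was 0.35 (adjusted p = 0.238). LSS, which closes squalene epoxide into lanosterol, had input values of 1004 and 1040.2 against 1389 and 1768 and RPF values of 1439.7 and 1801 against 2056 and 2094. It rose in input by 0.62 ± 0.13 (edgeR adjusted p = 0.000861) and in RPF by 0.37 ± 0.13 (limma adjusted p = 0.037). The input call was lost without METTL5-WT replicate 1 (edgeR adjusted p = 0.0865), and the RPF call without METTL5-WT replicate 1 (limma adjusted p = 0.369), METTL5-KO replicate 1 (0.0886) or METTL5-KO replicate 2 (0.109), with quantile normalization (0.26, 0.148) and without a variance trend (0.165).

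Of the enzymes that turn lanosterol into cholesterol, EBP and SC5D stood apart. EBP, the sterol isomerase, had input values of 900.1 and 853 in METTL5-WT cells and 906 and 963 in METTL5-KO cells. Its RPF values, from 435, 369, 1312 and 1368 reads, were 1033 and 740.0 against 1582 and 1525, and its log2 TE was 0.20 and -0.20 against 0.80 and 0.66. RPF and TE were separate by genotype, and the METTL5-WT libraries spread more than the METTL5-KO libraries. EBP rose in RPF by 0.83 ± 0.13 (limma adjusted p = 0.000202) and in TE by 0.74 ± 0.19 (limma adjusted p = 0.0351, edgeR adjusted p = 0.0164). With the GC trend removed the TE rise was 0.80 (adjusted p = 0.0274). The TE call was lost without METTL5-WT replicate 2 (0.53, limma adjusted p = 0.179), METTL5-KO replicate 1 (0.66, 0.178) or METTL5-KO replicate 2 (0.81, 0.228), and with quantile normalization (0.66, 0.0561). CYP51A1, DHCR7, NSDHL, MSMO1, TM7SF2, HSD17B7 and ACAT2, which supplies acetoacetyl-CoA to HMGCS1, were called in no measure by these rules. Their RPF log2 fold changes ran from -0.75 ± 0.29 for HSD17B7, from 32, 45, 37 and 48 reads, to 0.32 ± 0.16 for CYP51A1. The RPF difference of HSD17B7 was called with the GC trend removed (-0.85, limma adjusted p = 0.0307) and without a variance trend (0.0444). Its TE difference of -0.98 ± 0.40 was the largest in absolute size of the 33 genes. It rests on these few reads and was called under no setting (limma adjusted p = 0.159).

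SC5D, which places the last ring double bond before 7-dehydrocholesterol, had by far the largest change of the pathway. It lies at chr11:121292681-121313410 (hg38, plus strand). Its input values were 378 and 424 in METTL5-WT cells and 3068 and 2407 in METTL5-KO cells, and its RPF values were 532 and 584 against 4329 and 4491. Every METTL5-KO library exceeded every METTL5-WT library several times over. SC5D rose 6.76-fold in input (log2 fold change 2.76 ± 0.14, edgeR adjusted p = 2.80e-13) and 7.90-fold in RPF (2.98 ± 0.12, limma adjusted p = 1.44e-11), and it was called under all 10 alternative settings of input and all 16 of RPF. Its TE differed by 0.22 ± 0.17 (limma adjusted p = 0.465). Among RPF levels per length it moved from percentile 77.9 of all genes in METTL5-WT cells to percentile 96.8 in METTL5-KO cells.

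The rise was shared by the next gene on the chromosome, SORL1, a sorting receptor that is no member of the pathway and was picked after its values were seen. SORL1 begins 139 kb beyond the end of SC5D, on the same strand. Its input values, from 32, 31, 279 and 293 reads, were 21.79 and 22.03 against 168 and 147 (log2 fold change 2.83 ± 0.23, edgeR adjusted p = 3.02e-09). Its RPF values were 11.9 and 18.0 against 98.9 and 115, from only 5 and 9 reads in METTL5-WT cells and 82 and 103 in METTL5-KO cells. Both genes were thus higher in METTL5-KO cells by similar factors, at much lower levels for SORL1. On the other side, TBCEL differed by 0.080 ± 0.20, and beyond SORL1, MIR100HG by 0.074 ± 0.23 in input, neither of them called. Farther out, GRAMD1B (0.70), U8 (1.31) and VWA5A (1.28) were called higher and MCAM (-0.50) and TLCD5 (-0.89) lower. The median input log2 fold change of the 40 genes around SC5D was 0.060.

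**Figure D3:**
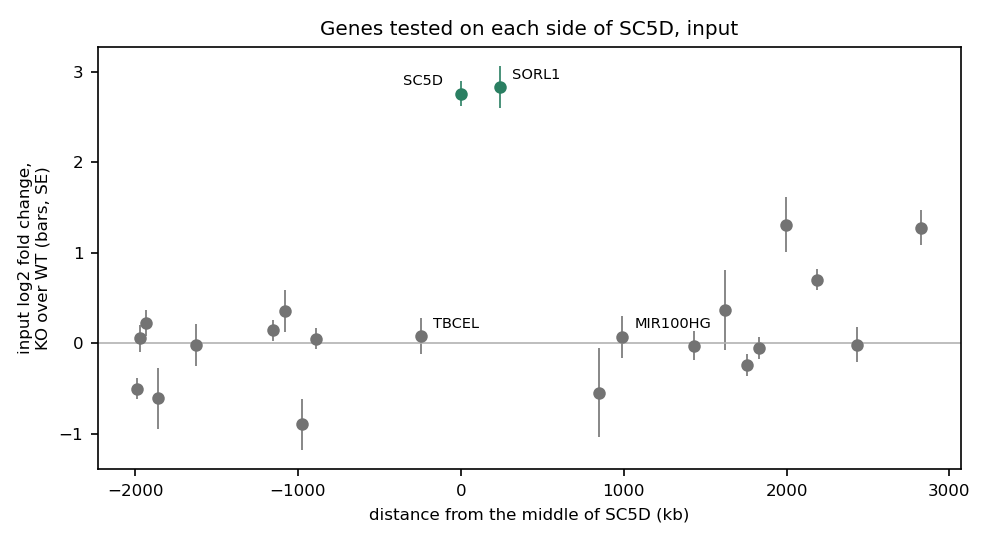
Input log2 fold change (METTL5-KO over METTL5-WT, y axis, bars of 1 SE) of SC5D and the genes tested on each side of it, against the distance between gene middles in kb (x axis). SC5D at 2.76 and SORL1 at 2.83 stand together, and TBCEL and MIR100HG, the labelled genes on either side, lie near 0.

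In the fatty acid branch 2 of 9 genes rose in RPF, where 14.1% of all genes were called higher. In input edgeR called 0, where it called 22.4% of all genes. In TE limma called 0, where limma and edgeR together called 4.72% of all genes. At an unadjusted p under 0.05 the counts were 2 of 9 in input, against 4810 of 14054 among all genes, and 6 of 9 in TE, against 2537 of 11240. DESeq2 called FASN, SCD and ELOVL5 in TE. SCD had input values of 6803 and 7166 in METTL5-WT cells and of 6975 and 7644 in METTL5-KO cells, and RPF values of 12064 and 11395 against 17073 and 16438. Input overlapped and RPF did not, and SCD rose in RPF by 0.51 ± 0.10 (limma adjusted p = 0.0012) under all 16 settings. ELOVL6, the elongase that acts on palmitate, rose in RPF by 0.46 ± 0.12 (limma adjusted p = 0.00927), from 219, 247, 614 and 592 reads, and its call was lost without METTL5-WT replicate 2 (0.43, 0.0638) or METTL5-KO replicate 1 (0.38, 0.0986).

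FASN and ACACA, the enzymes that commit carbon to fatty acids and assemble the chain, leaned the other way. ACACA, which makes malonyl-CoA, had input values of 1726 and 1549 against 1608 and 1574 and RPF values of 1539 and 1687 against 1412 and 1336. FASN had input values of 3703 and 3575 against 3869 and 4289 and RPF values of 18502 and 17185 against 15076 and 14666. For both, the METTL5-KO RPF libraries lay below the METTL5-WT ones while the input libraries overlapped for ACACA and those of METTL5-KO cells lay above for FASN. The RPF log2 fold change was -0.23 ± 0.10 for ACACA (limma adjusted p = 0.102) and -0.26 ± 0.10 for FASN (limma adjusted p = 0.0594, edgeR adjusted p = 0.0476, 27.8% of all genes called), so that neither passed both tests. Quantile normalization gave -0.31 for ACACA (limma adjusted p = 0.0303) and -0.45 for FASN (0.00239), and removal of the GC trend -0.32 (0.0116) and -0.11 (0.329). TE of FASN was 2.32 and 2.26 against 1.96 and 1.77, a log2 difference of -0.42 ± 0.14 (limma adjusted p = 0.0888) that was -0.61 with quantile normalization (0.0201) and shrank to -0.076 with the GC trend removed. ACLY and ACSS2, which supply acetyl-CoA, and the desaturases and elongase FADS1, FADS2 and ELOVL5 passed no test by these rules, with RPF changes between -0.047 and 0.24. FADS1 and FADS2 overlap on opposite strands. Input was counted by strand, and the strand setting of the RPF counts is not given in the sources used here. TE of ELOVL5 differed by 0.50 ± 0.16 and was not called by limma (adjusted p = 0.0743). It was called with the lysate as a replicate block (0.0366) and by DESeq2 (0.0448). TE of FADS1 (0.42 ± 0.15, 0.103) was called with the GC trend removed (0.55, 0.048). These TE differences hold a lower input as well as RPF changes of 0.24 for ELOVL5 and 0.15 for FADS1. Input was lower in METTL5-KO cells without overlap, by -0.27 ± 0.12 for ELOVL5 and -0.28 ± 0.11 for FADS1. Neither input difference was called by edgeR (adjusted p = 0.123 and 0.0775). Limma with the GC trend removed called FADS1 lower in input (-0.37, adjusted p = 0.0155).

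STARD4, a carrier of cholesterol between membranes, changed most among the transport genes. Its input values were 1090.0 and 1067 in METTL5-WT cells and 1456 and 1251 in METTL5-KO cells, and its RPF values, from 200, 266, 894 and 900 reads, were 475 and 533 against 1078 and 1004. Its log2 TE was -1.196 and -0.999 against -0.43 and -0.32. None of these sets overlapped. STARD4 rose in RPF by 1.05 ± 0.11 (limma adjusted p = 4.31e-06), a 2.06-fold rise, and in TE by 0.72 ± 0.16 (limma adjusted p = 0.0193, edgeR adjusted p = 0.0134), and its input change of 0.31 ± 0.12 was not called (edgeR adjusted p = 0.058), though it was called higher under 5 of 10 settings, among them the replicate number as a block (0.049), without METTL5-KO replicate 2 (0.42, 0.000418) and limma with the GC trend removed (0.45, 0.0024). The TE rise was 0.45 with the GC trend removed (adjusted p = 0.0708), and its call was lost without METTL5-WT replicate 1 (0.62, limma adjusted p = 0.134), METTL5-KO replicate 1 (0.78, 0.0581) or METTL5-KO replicate 2 (0.66, 0.166). TMEM97, a sterol-binding membrane protein, passed no test (RPF 0.25 ± 0.11, limma adjusted p = 0.0923).

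TE changes over all genes moved with the GC content of the coding sequence, and this bears on the members as well. The median log2 fold change of TE was 0.31 in the 1122 genes with the lowest coding GC content (median 39.6%) and -0.37 in the 1122 with the highest (median 66.8%). The medians of input ran the other way, from -0.17 to 0.22. HMGCS1 (42.5% GC) and STARD4 (40.3%) lie at the low end, SCAP (61.6%), FASN (65.3%) and SREBF1 (65.2%) at the high end, and EBP (55.4%) in between. With the trend removed, HMGCS1, EBP and FADS1 were called in TE, where 2.66% of all genes were called, and the medians of TE were 0.23 for the sterol branch, 0.34 for the fatty acid branch and 0.046 for regulation and transport. What part of the trend comes from the libraries was not tested.

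**Figure D4:**
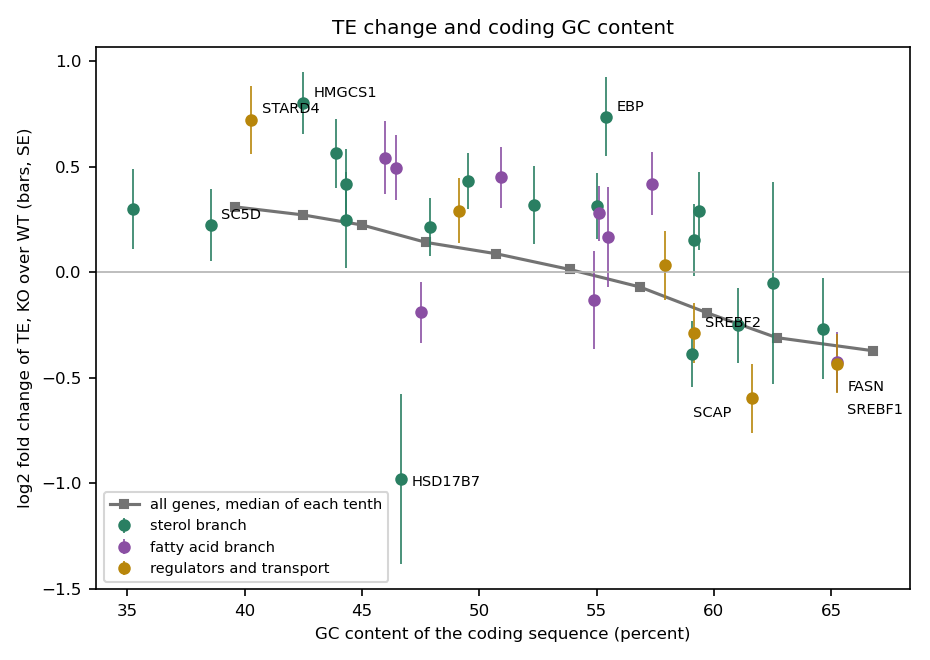
Log2 fold change of TE (METTL5-KO over METTL5-WT, y axis, bars of 1 SE) of the 33 genes against the GC content of their coding sequence in percent (x axis), with a grey line through the medians of 10 bins of all genes, each of 1122 genes. The medians fall from 0.31 to -0.37, HMGCS1, STARD4 and EBP lie above them, and SCAP lies below.

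As a share of all reads, the sterol branch was larger in both METTL5-KO libraries of each type, while the fatty acid branch overlapped. Sterol genes held 0.215% and 0.209% of input reads of the TE table in METTL5-WT libraries and 0.274% and 0.270% in METTL5-KO libraries. In RPF they held 0.227% and 0.229% against 0.326% and 0.324%. Without SC5D the RPF shares were 0.221% and 0.223% against 0.285% and 0.280%, so that the METTL5-KO libraries remained above the METTL5-WT ones. The fatty acid genes held 0.466% and 0.451% of RPF reads against 0.452% and 0.445%, which overlapped. Most of these reads fell on FASN (7788 and 8569 in METTL5-WT cells) and SCD (5078 and 5682). RPF values of FASN were lower and those of SCD higher in METTL5-KO cells, and neither was left out of the share. By gene, 6 of the 9 had an RPF log2 fold change above 0 and 3 below, so that the share does not describe the single genes. The smallest two-sided p that an exact permutation test of 2 libraries against 2 allows is 0.333, and no p is given for these shares.

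**Figure D5:**
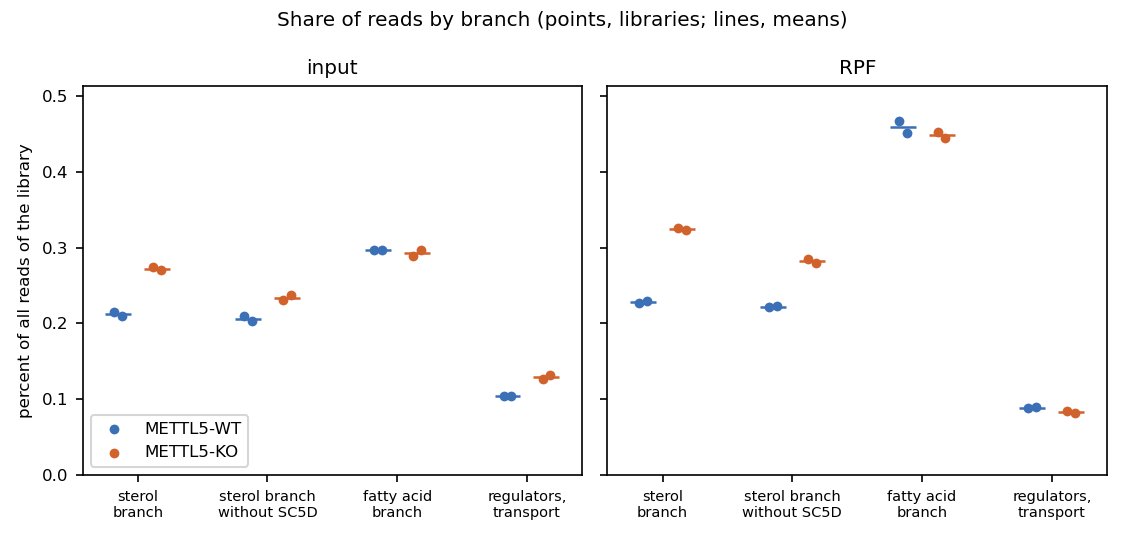
Percent of all reads of the TE table (y axis) that fell on the genes of each group, in input (left) and RPF (right), with a point for each library and a line at the mean of 2. The sterol branch is higher in METTL5-KO libraries with SC5D (RPF 0.326% and 0.324%) and without it (0.285% and 0.280%), and the fatty acid branch overlaps.

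Other genes of lipid handling gave a mixed picture. Of 47 symbols of such genes listed by role, SPRING1 and C12orf49 both among them, 40 were tested. In input 8 were called higher and 6 lower, where 22.4% of all genes were called. In RPF 6 were called higher and 4 lower by both tests, where 26.6% of all genes were called. In TE, where 4.72% of all genes were called, 1 of the 40 was, ACSL3, which activates long-chain fatty acids (0.57 ± 0.15, limma adjusted p = 0.0411). ACSL3 was called under 8 of 16 settings and differed by 0.30 with the GC trend removed (adjusted p = 0.157). The largest rises in input were ACSL1 (0.87 ± 0.21), the lysosomal sterol carrier NPC2 (0.65 ± 0.12) and the oxysterol receptor NR1H2 (0.60 ± 0.14), and in RPF ACSL1 (1.68 ± 0.30), the NADPH-supplying malic enzyme ME1 (0.78 ± 0.11) and NPC2 (0.67 ± 0.11). Among the falls in input were HSD17B12 (-0.90 ± 0.15), an enzyme of fatty acid elongation, and MBTPS1 (-0.62 ± 0.11), the protease that makes the first cut in SREBPs. Among those in RPF were ACACB (-1.16 ± 0.26), the mitochondrial acetyl-CoA carboxylase, and MBTPS1 (-0.75 ± 0.13). MBTPS1 is on chromosome 16 like MVD, and the 40 genes nearest to it had a median input log2 fold change of -0.49.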

How the data were processed

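Ribosome profiling and input RNA-seq of METTL5-WT and METTL5-KO cells labelled HepG2 were analysed, with 2 libraries in each of 4 groups. According to the methods and labels, the authors trimmed and filtered reads with BBDuk, kept RPF fragments of 25 to 34 bases, aligned input with STAR 2.7.3a to hg38 and counted reads per gene with featureCounts, whose version is 1.6.0 in the labels and 2.0.1 in the file header. The RPF reads were processed with RiboToolkit. The deposited input table holds raw counts for 60718 genes, and 3 broken lines were left out. The deposited TE table holds, per library, a normalized signal for 11244 genes that the authors name RPKM. Its values were whole reads (tolerance 0.01) multiplied by 1 constant per library, the inverse of a DESeq2 size factor, so that reads could be recovered and values carry no gene length. The authors' columns of log2 fold change, p-value and adjusted p-value were not used.

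Input counts were tested with edgeR's quasi-likelihood test (edgeR 4.0.16, R 4.3.3). For RPF and TE, limma 3.58.1 was run on log2(value + 1) of the deposited signal, in 1 model of all 8 libraries with TE as the interaction of genotype and library type, after a filter at a mean value of 1 in each library type. The design assumed RPKM, and the limma test was kept although reads could be recovered. An RPF or TE change is written as a rise or fall only where edgeR on the recovered reads called it too. P-values were two-sided and adjusted by Benjamini-Hochberg over all genes tested, with a threshold of 0.05. A fold change on the log2(value + 1) scale understates the change of low genes. DESeq2 1.42.0, other pseudocounts, filters and normalizations, a loess fit on coding GC content (span 0.3, GENCODE 44 coding sequences), replicate blocks and the omission of each replicate were the alternatives. For input the omission took out 1 library, and for RPF and TE it took out both the input and the RPF library of 1 lysate. The fits were tested on simulated data. Input and RPF of the same number came from 1 lysate by the protocol. Deviations of the same number correlated at -0.016 (METTL5-WT) and 0.053 (METTL5-KO) between input and RPF over 11240 genes.

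The members and lists were chosen with earlier results of these data known. Genes named were all 33 members, with values per library for the regulators, rate-limiting enzymes and called genes, and the 3 largest called rises and falls among other genes of the pathway, of which some are not reported here. Total counts were 10.7 M to 15.3 M in input and 3.97 M to 9.26 M reads in RPF (M, 1e+06), and 2 libraries per group limit the precision.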

Additional observations from a re-analysis of the deposited data

How the results depend on the processing

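Of the values for single genes, none called under the reported test reversed under any alternative. The number of input calls (6) became 2 to 14 when 1 library was left out, RPF calls (15) 12 to 15 and TE calls (4) 0 to 2. TE calls numbered 10 with DESeq2 on recovered reads, where 10.2% of all genes were called, and 0 without a variance trend in limma. The median log2 fold change of the sterol branch in RPF (0.34) was 0.26 with quantile normalization and 0.33 to 0.47 with 1 lysate left out. For the fatty acid branch, the RPF median (0.15) was 0.099 to 0.24 with 1 lysate left out. The TE median (0.28) was 0.14 with quantile normalization and 0.25 to 0.48 with 1 lysate left out. The cause was not tested, except that a fit without a library rests on fewer samples. With 1 library of a group left out, the lone library is assumed to vary like the other groups.

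The replicate number shared by METTL5-WT and METTL5-KO libraries is only a number, with correlations of 0.039 in input and -0.0021 in RPF. As a replicate block it gave 7 calls in input, 14 in RPF and 5 in TE, and the share of all genes called with this block is not given here. The lysate as a replicate block gave 6 TE calls (5 higher and 1 lower), where 7.06% of all genes were called. With the GC trend removed as well it gave 3, where 299 genes were called higher and 157 lower among all genes. The requirement of a call by both limma and edgeR, the edgeR fit on RPF reads alone and the input fit with the GC trend removed were added after seeing the data. Low depth limits HSD17B7 and TM7SF2, which had under 100 RPF reads in every library.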
